A study of Mus musculus with 4 samples.

Results

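The NF-kB subunits and feedback inhibitors are 10 listed genes: the subunit genes Nfkb1, Nfkb2, Rel, Rela and Relb, the inhibitor genes Nfkbia, Nfkbie and Nfkbiz, and the signalling brakes and partners Tnfaip3 and Birc3. Of these, 9 had an array row that names exactly 1 gene symbol, and these are described among 30142 genes measured the same way. Nfkb1 was not analysed here. Each of the 9 genes had 1 such row, so no choice between rows was needed.

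RNA was taken from primary keratinocytes of C57BL/6J mice aged 1 week, either wild type or Glut1-deficient, meaning that their keratinocytes lack the glucose transporter Glut1 (gene Slc2a1). How the deficiency was made, which promoter restricts it to keratinocytes and which part of the gene is lost are not stated in the labels. Each genotype had 4 mice and 2 arrays, and each array held 2 culture plates of a genotype, combined at random. All cells of both genotypes grew in KFSM medium with 0.05 mM CaCl2, EGF at 5 ng/ml, insulin at 0.5 ug/ml, hydrocortisone, bovine pituitary extract, penicillin and streptomycin, and were collected the day after 2000000 cells were reseeded. Values are log2 signals, on which a difference of 1 is a 2-fold difference. The number of arrays limits the precision, and the p-values reflect only how far these arrays differ, which may in part be technical.

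NF-kB is a family of dimers built from Rel-domain proteins. In resting cells, inhibitor proteins of the IkB family hold the dimers in the cytoplasm. Signals from TNF, interleukin 1 or Toll-like receptors activate a kinase complex that marks the inhibitors for degradation, and the freed dimers enter the nucleus. Among the genes they switch on are their own inhibitors, which close a negative feedback loop. Rela, Rel and Relb carry a transactivation domain, while Nfkb1 and Nfkb2 encode precursors that are processed to the smaller DNA-binding subunits. Nfkbia and Nfkbie encode classical cytoplasmic inhibitors, Nfkbiz an atypical nuclear one, Tnfaip3 a ubiquitin-editing enzyme that shuts down receptor signalling, and Birc3 a ubiquitin ligase of the receptor complexes. In mouse epidermis, both loss and excess of this signalling are known to cause inflammation.

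The dimers bind a short DNA element, the kappaB site, and the sequences before the start of the genes are shown because several of these genes are known targets of their own pathway. The sequences are from RefSeq (GRCm38.p6), cover the 250 bases before an annotated start, run 5′ to 3′ on the strand of the gene, and have every match to the kappaB consensus in capitals, on either strand and with overlapping matches merged. The consensus searched was GGGRNWYYCC, where R is A or G, N any base, W A or T, and Y C or T. Near matches were not counted and stay in lower case. Sequences were found for 7 of the 10 genes. They are printed for Tnfaip3 and Nfkb2, which were called lower and held matches, and for Nfkbia, the main classical inhibitor. They lie at chr10:19015411-19015660 on the minus strand (Tnfaip3, of whose 2 annotated starts the other has no match), chr19:46304487-46304736 on the plus strand (Nfkb2, the first of 3 annotated starts) and chr12:55492648-55492897 on the minus strand (Nfkbia).
Tnfaip3: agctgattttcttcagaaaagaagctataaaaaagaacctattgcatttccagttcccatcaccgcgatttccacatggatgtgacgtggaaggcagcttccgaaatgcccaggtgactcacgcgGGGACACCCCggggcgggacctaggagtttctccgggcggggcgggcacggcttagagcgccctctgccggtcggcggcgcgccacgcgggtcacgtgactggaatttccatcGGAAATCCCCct
Nfkb2: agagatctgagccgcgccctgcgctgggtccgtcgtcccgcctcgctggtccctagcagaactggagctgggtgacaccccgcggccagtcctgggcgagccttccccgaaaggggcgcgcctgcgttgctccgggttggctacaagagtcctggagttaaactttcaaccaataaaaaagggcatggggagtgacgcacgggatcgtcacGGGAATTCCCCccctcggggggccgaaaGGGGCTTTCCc
Nfkbia: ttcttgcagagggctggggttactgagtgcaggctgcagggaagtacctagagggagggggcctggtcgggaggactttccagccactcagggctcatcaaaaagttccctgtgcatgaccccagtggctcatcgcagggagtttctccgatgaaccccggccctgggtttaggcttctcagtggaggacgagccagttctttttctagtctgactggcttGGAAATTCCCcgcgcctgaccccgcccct

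Tnfaip3 had a match that ends 3 bases before the start and another that begins 125 bases before it. Nfkb2 had 2 matches within 39 bases of this start, and its other 2 starts had 1 match each. The match of Nfkbia lay 29 to 20 bases before its start. Rel and Nfkbie also held a match, shown with 10 bases on each side, from chr11:23771041-23771071 on the minus strand and chr17:45555584-45555613 on the plus strand.
Rel: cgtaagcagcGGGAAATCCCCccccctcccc
Nfkbie: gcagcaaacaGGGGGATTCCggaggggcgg

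In all, 5 of the 7 genes with a sequence held a match before at least 1 start, and Rela and Birc3 held none in this window. Among all 27025 genes of the sequence table, 4.46% held a match in the same 250 bases. A match is a description of letters and does not show binding.

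**Figure D1:**
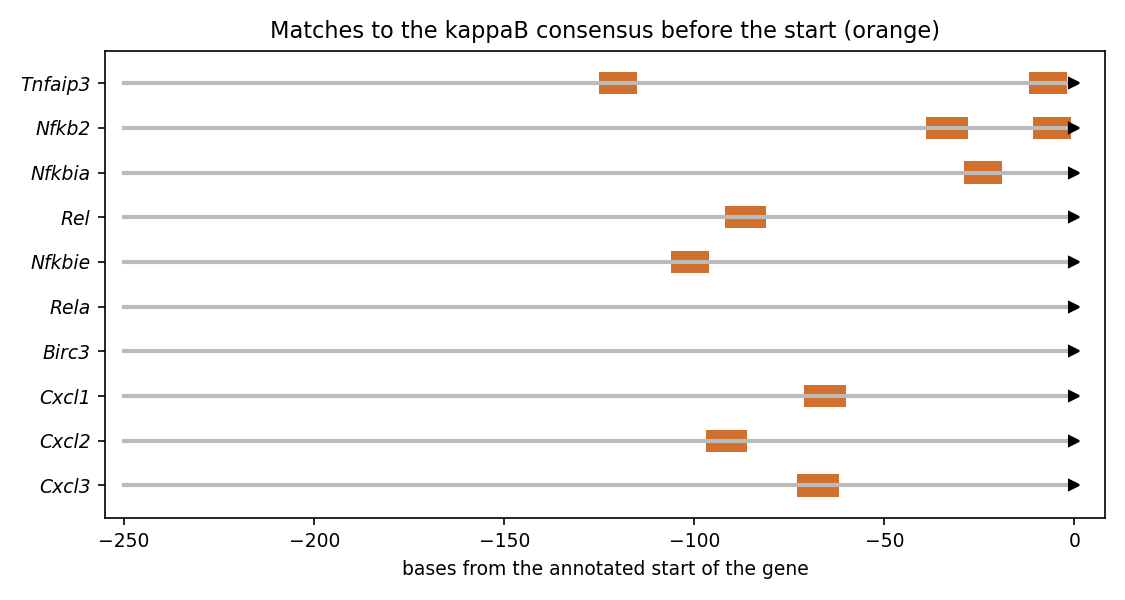
Positions of matches to the kappaB consensus (orange) in the 250 bases before the annotated start (arrowhead), by distance from the start, for 7 of the 10 genes and for the chemokine genes Cxcl1, Cxcl2 and Cxcl3; for Nfkb2 and Tnfaip3 the start farthest upstream is drawn. Tnfaip3 and Nfkb2 show 2 matches each, Nfkbia, Rel, Nfkbie and the 3 chemokine genes 1 each, and Rela and Birc3 none.

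The arrays of a genotype correlated at 0.998 (wild type) and 0.997 (Glut1-deficient) over 30604 rows, against 0.989 to 0.992 between genotypes. The targeted gene, Slc2a1, followed the labels, with signals of 13.26 and 13.40 in wild-type and 12.09 and 12.01 in Glut1-deficient cells, a fall by 1.28 on the log2 scale (limma adjusted p = 0.00754, n = 2 per group; -1.32 with adjusted p = 0.0508 without Glut1-deficient replicate 1). The keratin genes Krt5 and Krt14, which mark basal keratinocytes, had signals of 16.97 to 18.69. All 5 general leukocyte markers, Ptprc among them, lay at or below a background floor of 4.36 to 4.87 on all 4 arrays. The 9 genes described here lay above that floor on every array.

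In the comparison of Glut1-deficient with wild-type cells, Tnfaip3 fell about 5-fold, Nfkb2 and Birc3 fell by smaller amounts, and the other 6 genes did not pass the test. A row was called changed at a limma p, adjusted by Benjamini-Hochberg over all 30604 rows, under 0.05. So 3 of the 9 genes were called, 3 lower and 0 higher. Among all rows, 3.11% were called lower, 4.11% higher and 7.22% in either direction. These rows include 13634 that lay at or below the floor on every array, unlike the 9 genes. When only the 15233 rows above the floor on both arrays of a genotype were tested, 3135 rows and 4 of the 9 genes were called. With any 1 array left out, 1 of the 9 genes passed, Tnfaip3, and the called rows numbered 389 and 566 without wild-type replicates 1 and 2 and 314 and 1214 without Glut1-deficient replicates 1 and 2. It was also 1 of 9 with the replicate number as a block and when every row that is no control was tested. The median log2 fold change of the 9 genes was -0.40, against -0.01 over all genes tested. The 2 groups did not overlap for 8 of the 9 genes, 6 lower and 2 higher, where 49.7% of all rows did not overlap (25.8% lower and 23.8% higher). Fewer cells that express a gene and less RNA per cell cannot be told apart in these bulk samples.

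**Figure D2:**
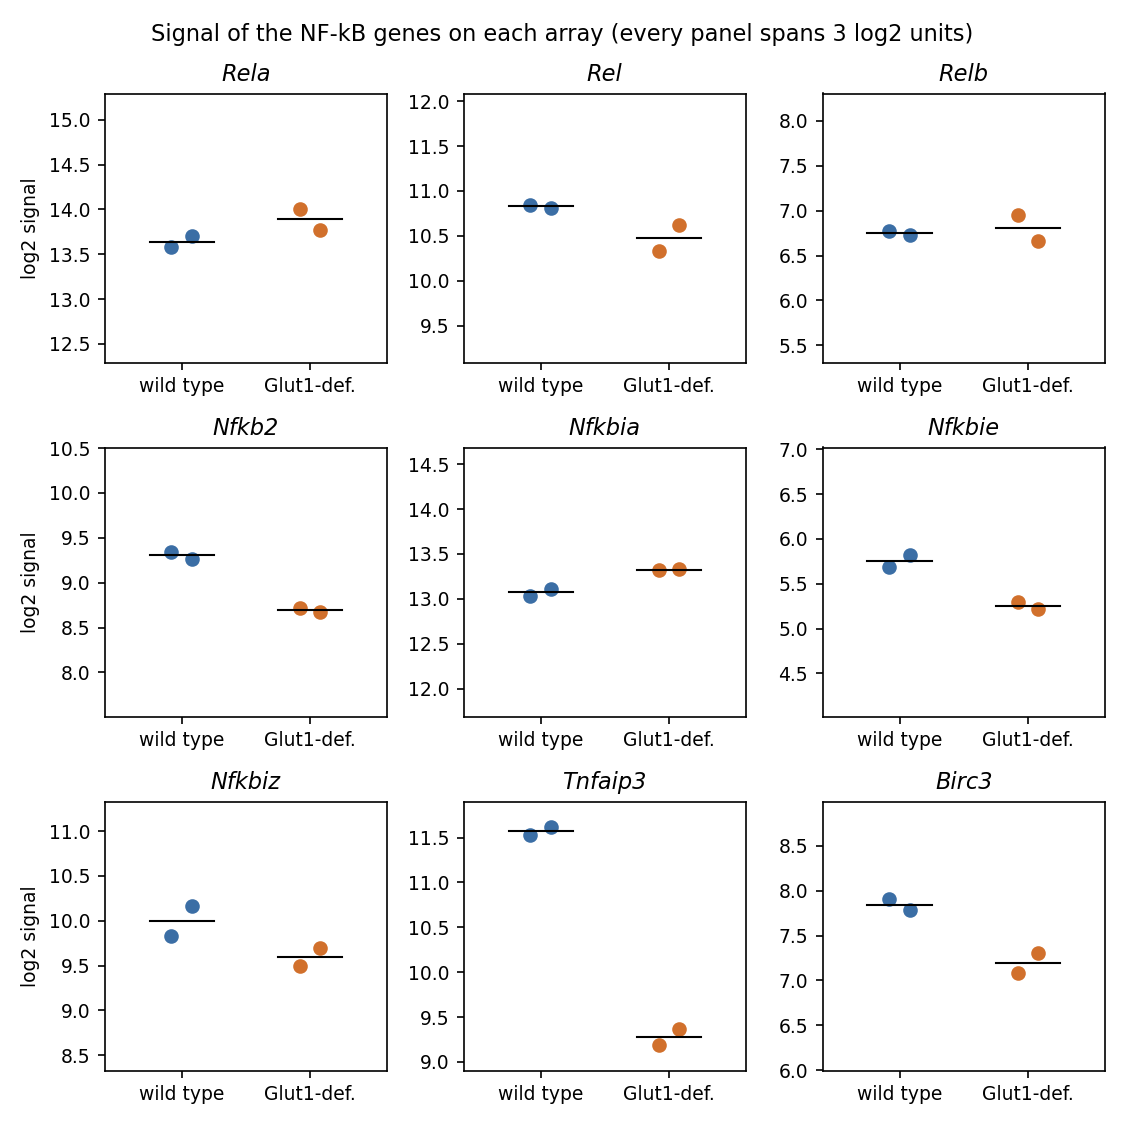
Log2 signal of the 9 genes on each of the 4 arrays (points; wild type blue, Glut1-deficient orange), with the mean of each genotype as a black line and the same span of 3 log2 units in every panel. Tnfaip3 drops from about 11.58 to 9.28 on average, Nfkb2 and Birc3 shift less, and only the points of Relb overlap between genotypes.

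Among the Rel-domain subunits with a transactivation domain, none passed the test. Rela, the most studied subunit of the canonical dimer, had signals of 13.58 and 13.70 in wild-type and 14.01 and 13.77 in Glut1-deficient cells. The Glut1-deficient arrays lay above the wild-type arrays, but by only 0.06 at the nearest point, and the log2 fold change of 0.25 (SE 0.12, n = 2 per group) had a limma adjusted p of 0.346. Its 95% interval, from -0.07 to 0.56, leaves room for a rise of up to 1.48-fold.

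Rel, the subunit best known from lymphocytes, had signals of 10.85 and 10.81 in wild-type and 10.33 and 10.63 in Glut1-deficient cells. Both Glut1-deficient values were lower, and the gap between them was wider than that between the wild-type values. The log2 fold change was -0.35 (SE 0.13, 95% interval -0.68 to -0.02, limma adjusted p = 0.202, unadjusted p = 0.0407), and it ranged from -0.50 to -0.20 when 1 array was left out.

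Relb, the partner of the processed Nfkb2 product in the non-canonical pathway, had signals of 6.77 and 6.73 in wild-type and 6.95 and 6.67 in Glut1-deficient cells. The Glut1-deficient arrays lay on both sides of the wild-type pair. The change in Relb was 0.06 on the log2 scale (95% interval -0.27 to 0.38, limma adjusted p = 0.883), and it was -0.085 without Glut1-deficient replicate 1.

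Nfkb2 had signals of 9.34 and 9.27 in wild-type and 8.71 and 8.67 in Glut1-deficient cells. The pairs were tight, and 0.55 on the log2 scale separated the nearest arrays of the 2 genotypes. It changed by -0.61 on the log2 scale (SE 0.09, 95% interval -0.85 to -0.37), a 1.53-fold lower signal with a limma adjusted p of 0.0277. The size kept within -0.65 to -0.57 whichever array was left out, but the call was then lost, with adjusted p = 0.155 and 0.116 without wild-type replicates 1 and 2 and 0.0993 and 0.0790 without Glut1-deficient replicates 1 and 2. With the replicate number as a block it was also lost (adjusted p = 0.0532), as it was when every row that is no control was tested (0.0770).

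Of the listed IkB family genes Nfkbia, Nfkbie and Nfkbiz, none passed the test. Nfkbia, which encodes the main inhibitor of the canonical dimer and is a standard readout of NF-kB transcription, had signals of 13.04 and 13.11 in wild-type and 13.32 and 13.34 in Glut1-deficient cells. Both Glut1-deficient values were higher. It changed by 0.25 on the log2 scale (SE 0.09, 95% interval 0.01 to 0.49, limma adjusted p = 0.208, unadjusted p = 0.0426), at most a 1.41-fold rise within that interval. It stayed between 0.21 and 0.29 when 1 array was left out.

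Nfkbie, which encodes another classical inhibitor, had signals of 5.69 and 5.82 in wild-type and 5.29 and 5.22 in Glut1-deficient cells, not far above the background floor. Both Glut1-deficient values were lower. The log2 fold change was -0.50 (SE 0.10, 95% interval -0.76 to -0.24), with a limma adjusted p of 0.0532, just above the threshold. It passed when each array was centred on its median (adjusted p = 0.0472), when only rows at or above the median row mean were tested (0.0352) and when only rows above the floor were tested (0.0342). Over all alternatives its adjusted p ranged from 0.0342 to 0.245.

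Nfkbiz encodes a nuclear inhibitor that acts as a co-activator at some inflammatory promoters in keratinocytes. Its signals were 9.83 and 10.16 in wild-type and 9.50 and 9.69 in Glut1-deficient cells. Both Glut1-deficient values were lower, by 0.13 at the nearest point, which is less than the distance of 0.34 between the wild-type arrays. The log2 fold change was -0.40 (SE 0.15, 95% interval -0.79 to -0.02, limma adjusted p = 0.212), and it ranged from -0.57 without wild-type replicate 1 to -0.23 without wild-type replicate 2.

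Tnfaip3 had signals of 11.53 and 11.62 in wild-type and 9.19 and 9.37 in Glut1-deficient cells. The nearest arrays of the genotypes were 2.17 apart, against 0.08 and 0.18 between the arrays of a genotype. Tnfaip3 thus changed by -2.30 on the log2 scale (SE 0.11, 95% interval -2.58 to -2.02, limma adjusted p = 0.00294), a 4.92-fold lower signal. Only 45 of 30604 rows, Tnfaip3 included, fell at least as far. The gene was the only one of the 9 whose call held under all 13 alternatives, with adjusted p from 0.00143 to 0.0256 and a log2 fold change from -2.39 to -2.21.

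Birc3 had signals of 7.90 and 7.78 in wild-type and 7.08 and 7.31 in Glut1-deficient cells. The groups were 0.48 apart at the nearest point. The log2 fold change was -0.65 (SE 0.12, 95% interval -0.95 to -0.34), a 1.57-fold lower signal with a limma adjusted p of 0.0423. The call was lost whichever array was left out (adjusted p = 0.189 and 0.126 without wild-type replicates 1 and 2, 0.136 and 0.0618 without Glut1-deficient replicates 1 and 2), with the replicate number as a block (0.0639), with every row that is no control tested (0.102) and after median centring (0.0514). Its neighbour in function, Birc2, had a log2 fold change of -0.07 (adjusted p = 0.828), and 0.059 without Glut1-deficient replicate 1. Whether the change of Birc3 differs from that of Birc2 was not tested.

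**Figure D3:**
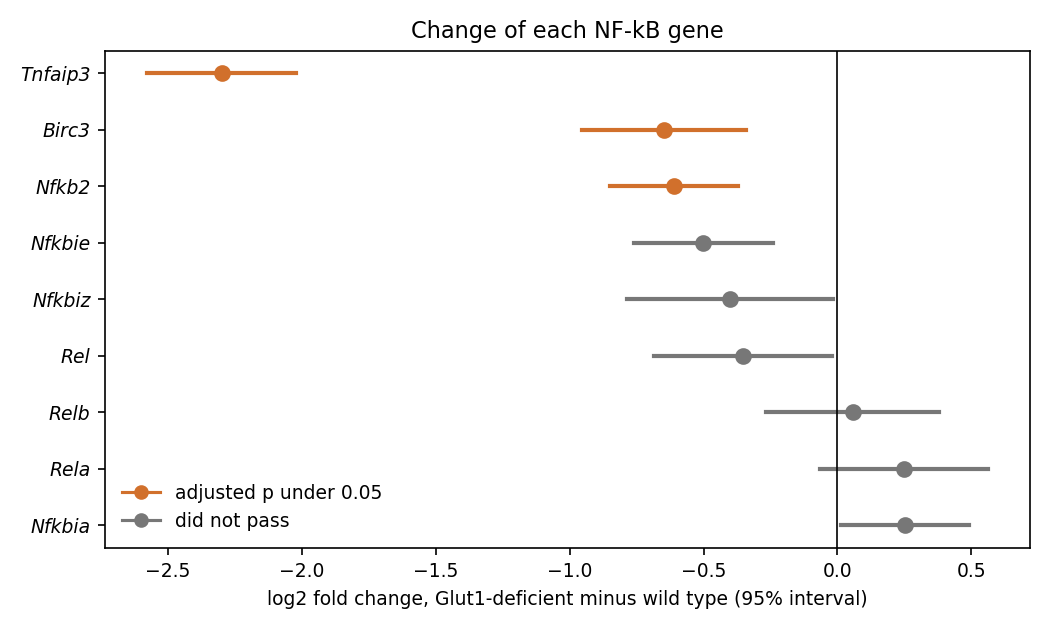
Log2 fold change of the 9 genes, Glut1-deficient minus wild type (points), with the 95% interval from limma (lines); orange marks an adjusted p under 0.05 and grey the genes that did not pass. Tnfaip3 stands at -2.30, Birc3 and Nfkb2 at -0.65 and -0.61, and the intervals of Relb and Rela include 0.

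**Figure D4:**
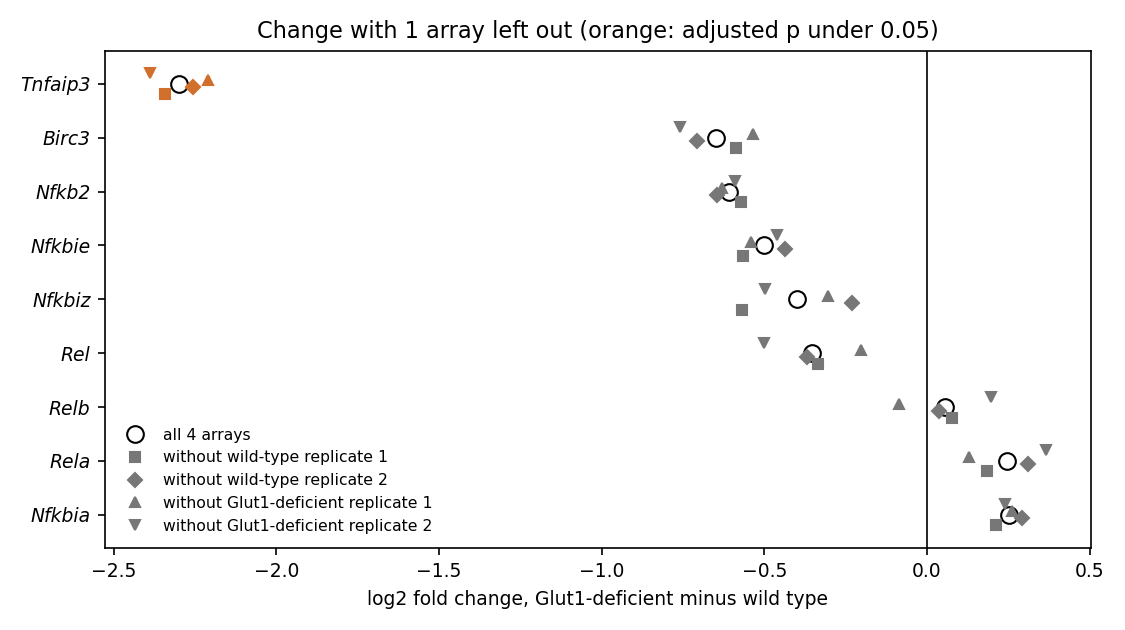
Log2 fold change of the 9 genes with all 4 arrays (open circles) and with each array left out (filled symbols; orange where the adjusted p was under 0.05). With 1 array left out only Tnfaip3 passes, and the sign changes only for Relb.

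The rest of the pathway was described with 5 lists of genes, 139 in all, of which 131 were measured. Of these, 19 lay at or below the floor on every array, against 13634 of all 30604 rows. The shares of all rows given below therefore include many rows without signal above background. When only the 15233 rows above the floor on both arrays of a genotype were tested, 3135 were called. Of the ligands and receptor antagonists, 3 of 18 measured genes rose, 2 fell and 13 did not pass, and 12 lay at or below the floor on every array (median log2 fold change 0.00). The called share was 27.8%, beside 7.22% of all rows (4.11% higher and 3.11% lower). The 5 calls became 1 and 2 without wild-type replicates 1 and 2 and 3 without Glut1-deficient replicate 1. Tnf, the founding ligand, had signals of 12.97 and 12.74 in wild-type and 10.35 and 11.07 in Glut1-deficient cells, and fell by 2.15 (SE 0.25, limma adjusted p = 0.0163; 0.0590 without wild-type replicate 1). Il1a, the alarmin stored by keratinocytes, fell by 0.94 (SE 0.13, adjusted p = 0.0211). Both Glut1-deficient arrays lay below both wild-type arrays for these 2 genes. Il1rn, which encodes the interleukin 1 receptor antagonist, rose from 5.46 and 5.31 to 6.63 and 7.27 (log2 fold change 1.57, SE 0.22, adjusted p = 0.0234). Il1f9, an interleukin 36 gene, rose from 5.96 and 5.67 to 8.13 and 8.54 (2.52, SE 0.18, adjusted p = 0.00593), and its call held whichever array was left out. Il33 was the third to rise, but it lay above the floor on 1 of 4 arrays, Glut1-deficient replicate 2, so no fold is given for it. Il1a was no longer called when wild-type replicate 1, wild-type replicate 2 or Glut1-deficient replicate 1 was left out (adjusted p = 0.0962, 0.0744 and 0.0773), nor was Il1rn without wild-type replicate 1 or 2 (0.0735 and 0.0785). Il33 lost its call whichever of the 4 was left out (adjusted p from 0.0738 to 0.123). With every row that is no control tested, Il1a, Il1rn and Il33 also lost their calls (0.0526, 0.0516 and 0.0672).

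The called share of the receptors was 15.8%, beside 7.22% of all rows (4.11% higher and 3.11% lower). Of the 19 measured, 2 lay at or below the floor on every array. When only rows above the floor were tested, 3135 of 15233 were called. Of the receptors, 2 of 19 rose, 1 fell and 16 did not pass (median log2 fold change 0.07). None passed without wild-type replicate 1 or 2 or with every row that is no control tested, and 1 passed without Glut1-deficient replicate 1. Tlr3, the sensor of double-stranded RNA, had signals of 8.77 and 8.47 in wild-type and 7.04 and 7.52 in Glut1-deficient cells (log2 fold change -1.34, SE 0.20, limma adjusted p = 0.0253). Il17rc, a subunit of the interleukin 17 receptor, rose by 0.93 (SE 0.17, adjusted p = 0.0385), and the TNF receptor gene Tnfrsf1a by 0.50 (SE 0.10, adjusted p = 0.0464). Leaving out wild-type replicate 1, wild-type replicate 2 or Glut1-deficient replicate 1 ended the calls of Tlr3 (adjusted p of 0.0557 to 0.0928) and Il17rc (0.0894 to 0.15). The call of Tnfrsf1a ended whichever of the 4 arrays was left out (0.0895 to 0.231), with the replicate number as a block (0.0974), after quantile normalization (0.0530), with the trend option of eBayes (0.0571) and with every row that is no control tested (0.123). In that last setting Tlr3 and Il17rc had adjusted p-values of 0.0563 and 0.0845. Il1r1, the receptor of interleukin 1, had signals of 11.49 and 11.35 in wild-type and 10.72 and 11.67 in Glut1-deficient cells, and the groups overlapped.

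Of the adaptors and kinases, 0 of 29 rose, 3 fell and 26 did not pass. That share of 10.3% stands beside 7.22% of all rows (4.11% higher and 3.11% lower), but 0 of the 29 genes lay at or below the floor on every array. It also stands beside 3135 of 15233 rows called when only rows above the floor were tested. Ikbke, a kinase related to the IkB kinases, had signals of 10.63 and 10.50 in wild-type and 8.71 and 8.92 in Glut1-deficient cells. Its log2 fold change was -1.75 (SE 0.12, limma adjusted p = 0.00523), and the call held under every alternative. The adaptor genes Tirap and Traf2 fell by 0.85 (SE 0.11, adjusted p = 0.0190) and 0.78 (SE 0.12, adjusted p = 0.0277), and leaving out any 1 array ended both calls (adjusted p of 0.0502 to 0.0955 for Tirap and 0.0533 to 0.123 for Traf2), so that 1 gene of the list then passed. Traf2 was also lost with every row that is no control tested (0.0686). The genes Ikbkb and Ikbkg of the core kinase complex, chosen after their values were seen, did not pass: Ikbkb had a log2 fold change of -0.17 (adjusted p = 0.410) and Ikbkg one of 0.19 (0.351). The kinase Map3k7 and its partner Tab2, the genes of highest signal among those not called, had log2 fold changes of -0.18 and 0.12.

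Of the other inhibitors and modulators, 1 of 25 rose, 4 fell and 20 did not pass, or 20% called beside 7.22% of all rows (4.11% higher and 3.11% lower). Here too, 0 of the 25 genes lay at or below the floor on every array, and 3135 of 15233 rows above the floor were called. Tnip1, which encodes a partner protein of the Tnfaip3 product, had signals of 9.33 and 9.15 in wild-type and 7.95 and 8.27 in Glut1-deficient cells, a log2 fold change of -1.13 (SE 0.15, limma adjusted p = 0.0194). Zc3h12a, an RNase gene that limits inflammatory transcripts, went from 8.78 and 8.38 to 7.16 and 7.31 (-1.35, SE 0.16, adjusted p = 0.0167). Bcl3, an atypical IkB gene, went from 6.79 and 6.81 to 5.96 and 5.72 (-0.96, SE 0.12, adjusted p = 0.0173). Tnip3 lay above the floor in wild-type cells alone, so its fall is given as at least 1.14-fold. Rnf11, which encodes a cofactor of the Tnfaip3 product, rose by 0.78 (SE 0.12, adjusted p = 0.0261). With a wild-type array left out, 1 gene of this list passed, and 3 passed without Glut1-deficient replicate 2. No gene of it passed without Glut1-deficient replicate 1, where Zc3h12a, Bcl3, Tnip1, Rnf11 and Tnip3 had adjusted p-values of 0.0905, 0.0524, 0.0763, 0.0962 and 0.112. Bcl3, Tnip1 and Rnf11 were also lost without either wild-type array (0.0554 to 0.124), Zc3h12a without Glut1-deficient replicate 2 (0.0557), and Tnip3 without each of the 4 arrays (0.0833 to 0.164) and with the replicate block (0.0718). Rnf11 and Tnip3 were lost with every row that is no control tested as well (0.0660 and 0.0912).

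Of the target genes, 14 of 40 fell, 1 rose and 25 did not pass (8 called without Glut1-deficient replicate 1 and 10 without wild-type replicate 1). That share of 37.5% stands beside 7.22% of all rows (4.11% higher and 3.11% lower), and the median log2 fold change of -0.36 beside -0.01 over all genes. Of the 40 genes, 5 lay at or below the floor on every array. When only rows above the floor were tested, 3135 of 15233 were called. The list was drawn up with earlier results of these arrays known, in which several of its chemokine genes had fallen, so its direction is not independent evidence. The 8 genes with the smallest p-values all fell. The cytokine gene Lif went from 9.74 and 9.66 to 7.73 and 7.82 (log2 fold change -1.93, SE 0.10, limma adjusted p = 0.00317). Csf2, which encodes a myeloid growth factor, went from 8.81 and 8.67 to 5.17 and 5.77 (-3.27, SE 0.21, adjusted p = 0.00508). In both genes the groups lay far apart relative to the arrays within a genotype. The neutrophil chemokine gene Cxcl2 went from 12.99 and 12.69 to 10.37 and 10.61 (-2.36, SE 0.15, adjusted p = 0.00508), and Plau, the urokinase gene, from 16.66 and 16.30 to 13.59 and 14.28 (-2.54, SE 0.26, adjusted p = 0.0122). Gadd45b, a stress response gene, fell by 1.70 and Mmp9, a gelatinase gene, by 4.60. The calls of Lif, Csf2, Cxcl2, Plau, Gadd45b and Mmp9 held under every alternative. Cxcl3 and Ier3 fell by 3.44 and 1.03, and both were lost without Glut1-deficient replicate 1 (adjusted p = 0.0562 each), Ier3 also without wild-type replicate 1 (0.0635). Not every target fell: Lcn2, an antimicrobial lipocalin gene, rose by 0.58 (SE 0.10, adjusted p = 0.0338), and Ptgs2, which encodes an enzyme of prostaglandin synthesis, had signals of 17.17 and 17.04 in wild-type and 17.36 and 17.69 in Glut1-deficient cells (adjusted p = 0.169). Of the 40 genes, 11 had a log2 fold change above 0 and 29 below. The largest positive ones, of Vcam1 (2.15, limma adjusted p = 0.0736) and Ccl2 (1.39, 0.162), did not pass, although the groups did not overlap. Vcam1 went from 5.86 and 5.84 to 7.20 and 8.79. These 2 genes were also chosen after their values were seen. The groups did not overlap for 33 of the 40 genes (24 lower and 9 higher), beside 49.7% of all rows (25.8% lower and 23.8% higher). Lcn2 was chosen here after its value was seen, as the 1 gene of the list that rose, and its call was lost with any 1 array left out (adjusted p of 0.0700 to 0.174), with the replicate block (0.0665) and with every row that is no control tested (0.0909).

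**Figure D5:**
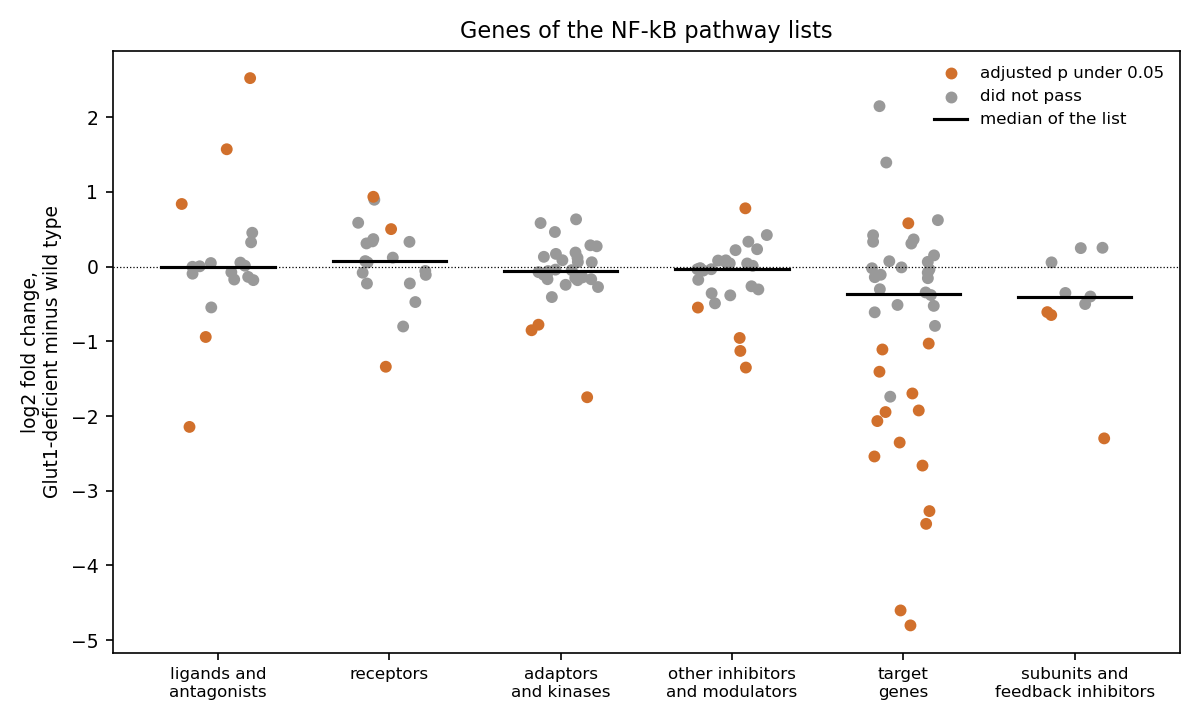
Log2 fold change, Glut1-deficient minus wild type, of each measured gene (points) in the 5 pathway lists and among the 9 subunit and feedback inhibitor genes; orange marks an adjusted p under 0.05 and black lines the median of a list. The target genes spread from -4.80 to 2.15 with a median of -0.36, while the medians of the ligand, receptor, adaptor and modulator lists lie between -0.06 and 0.07.

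The chemokine genes Cxcl1, Cxcl2 and Cxcl3, chosen for display after their values were seen, shared 1 element before their starts, shown from chr5:90891164-90891194, chr5:90903792-90903822 and chr5:90786018-90786048 on the plus strand.
Cxcl1: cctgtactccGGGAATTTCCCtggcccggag
Cxcl2: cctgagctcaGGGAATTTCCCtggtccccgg
Cxcl3: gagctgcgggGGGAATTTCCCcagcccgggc

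The 10 bases GGGAATTTCC in this element occurred, on either strand, in the 250 bases before a start in 28 of 27025 genes, or 0.104%. Nfkbia is 1 of those genes, with the element on the opposite strand in the sequence shown above. The signals of the 3 chemokine genes fell by 1.41 to 3.44 on the log2 scale (limma adjusted p of 0.00508 to 0.0232, lost for Cxcl1 without wild-type replicate 1, wild-type replicate 2 or Glut1-deficient replicate 1 at 0.0888, 0.0675 and 0.0562, and with every row that is no control tested at 0.0520), while Nfkbia had a change of 0.25 that did not pass. Of the target genes with a sequence, 6 of 9 that were called lower and 5 of 19 that were not called lower held a kappaB consensus match. Among all 27025 genes, 4.46% held one. Cxcl1, Cxcl2 and Cxcl3, close together on chr5 and sharing 1 element, are 3 of those 6. The list was drawn up with earlier results known and is split here by its own calls, so these counts are not independent evidence.

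Several markers of other cell types were higher in Glut1-deficient cells, and their part in the results above was not tested. Levels of a marker list are given as the log2 of its summed linear signals. The 5 melanocyte markers summed to 10.50 and 9.98 in wild-type and 12.36 and 11.09 in Glut1-deficient cells, and 1 of them, Pmel, was called higher (limma adjusted p = 0.0341). Cd68, Dcn and Pmel lost their calls without either wild-type array (adjusted p of 0.0697 to 0.122), and Pmel also without Glut1-deficient replicate 1 (0.0962). With every row that is no control tested their adjusted p-values were 0.0563, 0.0545 and 0.0752. Of the 5 macrophage or Langerhans cell markers, Cd68 rose by 1.95, while Csf1r, Cd207, H2-Aa and Lyz2 lay at or below the floor on every array (sums of 8.06 and 8.14, then 9.41 and 10.26). Of the 4 endothelial markers, Kdr rose by 3.60, and Cdh5 and Emcn lay at or below the floor on every array (sums of 6.90 and 7.10, then 10.21 and 9.61). The fourth, Pecam1, had lower signals in Glut1-deficient cells, 4.60 and 4.66 against 4.37 and 4.26, a log2 fold change of -0.32 that did not pass (adjusted p = 0.141), and it lay above the floor on 1 wild-type array alone. Of the 4 measured fibroblast markers, Dcn was called higher, and Col3a1 lay at or below the floor throughout (sums of 6.43 and 6.42, then 6.92 and 7.23). The 5 leukocyte markers summed to 6.01 and 6.00 in wild-type and 6.00 and 5.93 in Glut1-deficient cells, and of the 3 measured T cell markers, Cd3e and Cd3g lay at or below the floor on every array (sums of 5.75 and 5.90, then 5.96 and 5.92). The 6 keratinocyte markers summed to 19.20 and 19.31, then 18.90 and 18.62, and none of them was called. The groups did not overlap for these 6, with 5 lower and 1 higher in Glut1-deficient cells, where 49.7% of all rows did not overlap. The log2 fold changes of Itgb4, Krt5 and Krt14 were -0.77, -0.51 and -0.43 (limma adjusted p = 0.0660, 0.0994 and 0.122), and Trp63 had one of 0.18.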

How the data were processed

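RNA of 4 single-channel Affymetrix MTA-1_0 arrays, 2 per genotype, was analysed. The authors deposited 1 log2 signal for each transcript cluster. Per the submitters' processing notes these came from RMA in Affymetrix Expression Console, and per the labels they are SST-RMA signals at gene level. RMA equalises the distributions of the arrays, which would remove any shift common to most genes. Software versions, the array annotation's genome build and the set of arrays normalized together were not given in the sources used here.

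A platform table named exactly 1 symbol for 30604 of 72688 rows (30142 genes); 2146 rows had several, 33206 had none and 6732 were control rows. Symbols were updated through RefSeq for 827 rows. Genes were represented by their brightest row. The rows were fitted with limma 3.58.1 (lmFit, eBayes) in R 4.3.3, two-sided, with no replicate block, because plates were combined at random. SE is limma's moderated standard error. An exact permutation test of 2 against 2 arrays cannot go below p = 0.333. The floor is the 0.95 quantile of 23 background control rows in each array. A fold against a genotype with both arrays at or under this floor is a bound. Of the pathway lists, Tnfsf12, Il1rl1, Irak1, Irak4, Ripk1, Ripk2, Traf3 and Chuk were not analysed here, nor were the markers Trdc and Pdgfra.

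The members and lists were chosen with earlier results of these data known. The named genes are the members, Slc2a1 and, in each list, up to 8 called genes with the smallest p and the 2 brightest others; not all are printed. On simulated data with 200 changed rows among 30604, the fit for the comparison of 2 arrays with 2 recovered 59.7% of 2-fold, 98.5% of 4-fold and 98.5% of 8-fold changes, and 3.39% of its calls were unchanged rows. The fit was repeated with other normalizations, other sets of rows, other variance moderation, a replicate block, rows averaged by gene and each array left out.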

Additional observations from a re-analysis of the deposited data

How the results depend on the processing

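Over 13 alternatives each, the 9 genes kept direction and call in 100 of 117 comparisons, lost the call in 13 (Nfkb2 and Birc3), gained it in 3 (Nfkbie) and changed sign in 1 (Relb, from -0.085 without Glut1-deficient replicate 1 to 0.20 without Glut1-deficient replicate 2, a log2 change that was never called). Among 34 named genes of the lists, 340 of 404 comparisons kept direction and call, 59 lost the call, 3 gained it and 2 changed sign, both never called: Il1r1, from -0.70 without Glut1-deficient replicate 2 to 0.25 without Glut1-deficient replicate 1, and Tax1bp1, from -0.42 to 0.068 without the same arrays. Birc2, also never called, ran from -0.21 to 0.059 without them. For the 9 genes, averaging rows by gene changed no value, because each had 1 row. Most comparisons of the 9 genes that kept direction and call belong to the 6 not called in the main fit. The calls of Tnfaip3, Nfkb2 and Birc3 held in 13, 7 and 6 of their 13 alternatives. The count of 2209 called rows was 314 to 1214 with 1 array left out and 1033 when every row that is no control was tested. In that last setting 1 of the 9 genes, 2 ligands, 0 receptors and 3 other inhibitors passed. Of the 9 genes, 1 passed with the replicate number as a block, where 1849 rows were called, and 1 with any array left out. Without 1 array, 1 to 4 ligands, 0 to 3 receptors, 1 adaptor or kinase, 0 to 3 other inhibitors and 8 to 14 target genes passed, and the Slc2a1 change ran from -1.35 to -1.21. Same-numbered arrays share only a number (correlation of deviations -0.23 over 30604 rows). With crossed numbers as a block, an alternative chosen after seeing the data, 2039 rows were called. A call rests on 2 residual degrees of freedom and on 3.18 more that limma borrows from the variances of all rows. A gene that missed the threshold is therefore not shown to be unchanged.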
